A study of Mus musculus with 4 samples.

Results

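The genes *Cebpa*, *Cebpb*, *Cebpd*, *Cebpg*, *Pparg*, *Fabp4*, *Lpl*, *Plin1*, *Adipoq* and *Cd36* were followed by RNA-seq in quiescent mouse embryonic fibroblasts (MEFs) with and without Phf2. They were taken by symbol, as factors that Phf2 is reported to co-activate and as targets of such factors. All 10 were among the 24391 gene symbols counted, and 8 had enough reads to be tested. The 2 WT and 2 *Phf2* KO libraries all carry the genotype Phf2 flox/flox, ERCre/+, so the controls have floxed alleles and the Cre transgene as well. By the methods, the MEFs came from E13.5 embryos, CreERT2 was expressed from the Rosa26 locus, and deletion used 0.5 µM 4-hydroxytamoxifen (4-OHT) for 7 days in medium with 2% charcoal-treated serum. Tamoxifen is labelled for the *Phf2* KO libraries alone, so loss of Phf2, active Cre and the drug cannot be told apart. Neither the labels nor the methods say whether a library came from 1 embryo, or whether the cells were primary or immortalized, so the p-values measure only the spread between these libraries. That spread includes the differences by replicate number given with the library totals.

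C/EBP factors are leucine zipper proteins that bind DNA as dimers. In the textbook account of fat cell formation, C/EBPβ and C/EBPδ appear first and switch on *Pparg* and *Cebpa*, whose products then maintain each other and turn on the genes for lipid uptake and storage. Embryonic fibroblasts can take this path when given an adipogenic mix of hormones. Several of these genes are also used outside fat, *Cd36*, *Lpl*, *Fabp4*, *Pparg* and *Cebpa* by macrophages among others.

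Library totals ran from 21094743 to 26094268 counts. The floor of 3 counts amounted to 0.115 to 0.142 CPM (a count scaled to a fixed library total), a limit for counting error alone. For the deleted gene *Phf2*, WT replicates 1 and 2 had 3244 and 3680 counts against 1454 and 2158 in *Phf2* KO, where the mean level was 57.9% of WT, and reads over the floxed exons were not counted apart. The libraries differed by replicate number in both groups. *Xist*, from the inactive X chromosome, had 10042 counts in WT and 8336 in *Phf2* KO for replicate 1, against 3 and 12 for replicate 2. The Y-linked *Ddx3y* went the other way, with 6 and 10 counts against 1271 and 1295. By these counts, the replicates 1 were mainly female cells and the replicates 2 mainly male cells in both groups. Sex therefore cannot be told apart from other differences by replicate number. Macrophage markers, 25 in number, summed to 5049 CPM (WT) and 5565 CPM (*Phf2* KO) for replicate 1 and to 1083 and 1665 CPM for replicate 2. Each of the 23 that could be tested was higher in replicate 1 by over 1 log2 unit in WT and in *Phf2* KO alike, *Lyz2*, *Cd68* and *Laptm5* being the most abundant, while *Cx3cr1* and *Cd163* had 8 counts or fewer in each library. Values within each replicate number are therefore given beside the pooled difference of each of the 8 genes tested, and as counts for the lists.

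The chromatin of the *Pparg* and *Plin1* promoters was not measured here. C/EBP factors are known to act on the *Pparg* gene, and *Plin1* lies at the end of the same cascade. The windows below are shown for a sequence match found by search. Of the 9 promoter windows in RefSeq (GRCm38.p6) for 7 of the genes, these were the only ones with the letters TTGCNNAA. This is a C/EBP site with the letters at N left open, sought on either strand in the 250 bases before the start. Of 32851 such windows in the table, 9.56% held it. The matches are in capitals.
*Pparg* (chr6:115421816-115422065, forward strand): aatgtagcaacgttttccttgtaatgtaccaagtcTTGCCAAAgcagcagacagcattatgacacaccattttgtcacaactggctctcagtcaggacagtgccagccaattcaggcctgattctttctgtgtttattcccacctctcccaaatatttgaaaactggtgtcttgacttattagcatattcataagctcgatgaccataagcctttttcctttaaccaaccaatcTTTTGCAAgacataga
*Plin1* (chr7:79732777-79733026, reverse strand): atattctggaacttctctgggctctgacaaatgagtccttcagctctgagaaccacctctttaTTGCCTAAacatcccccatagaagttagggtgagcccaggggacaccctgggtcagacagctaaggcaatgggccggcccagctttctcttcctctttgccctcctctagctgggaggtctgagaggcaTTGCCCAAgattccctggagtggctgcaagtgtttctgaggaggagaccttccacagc
Counted from the start that each window precedes, the matches begin at -215 and -16 for *Pparg* and at -187 and -58 for *Plin1*. The one nearest that *Pparg* start is read on the other strand. Another *Pparg* window lies upstream, at 115362099 to 115362348, so the start used here is not the first of the gene. The table gives *Pparg* 3 windows, of which the other two lack these letters, and the deposited counts do not separate its starts.

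Per length, *Lpl* was by far the highest of the genes and the mature adipocyte genes *Adipoq* and *Plin1* were the lowest, with 9 counts or fewer in each library. In WT, the level in RPKM (CPM per kilobase of exon) was 168.8 ± 49.6 (SD, n = 2) for *Lpl*, 48.8 ± 5.40 (SD, n = 2) for *Cebpd*, 43.5 ± 3.67 (SD, n = 2) for *Cebpb*, 14.7 ± 9.94 (SD, n = 2) for *Fabp4* and 12.6 ± 3.55 (SD, n = 2) for *Cebpa*. It was 11.7 ± 11.5 (SD, n = 2) for *Cd36*, 8.17 ± 0.546 (SD, n = 2) for *Cebpg* and 4.91 ± 1.92 (SD, n = 2) for *Pparg*. *Lpl* stood above all the others and *Adipoq* and *Plin1* below all the others in each of the 4 libraries. *Cebpd* was above *Cebpb* in each library too, although their ranges in WT, 45.0 to 52.7 and 40.9 to 46.1 RPKM, overlapped. The next places could not be ordered, since the WT range of *Fabp4* enclosed that of *Cebpa* and the WT range of *Cd36* enclosed those of *Cebpa*, *Cebpg* and *Pparg*. *Cd36* was above *Cebpa* in WT replicate 1, with 19.8 against 15.1 RPKM, and below it in WT replicate 2, with 3.54 against 10.1 RPKM. Among 12486 tested genes with a length, the mean level of *Lpl* lay at percentile 98.6, *Cebpd* at 93.0, *Cebpb* at 91.3 and *Pparg* at 44.6.

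**Figure D1:**
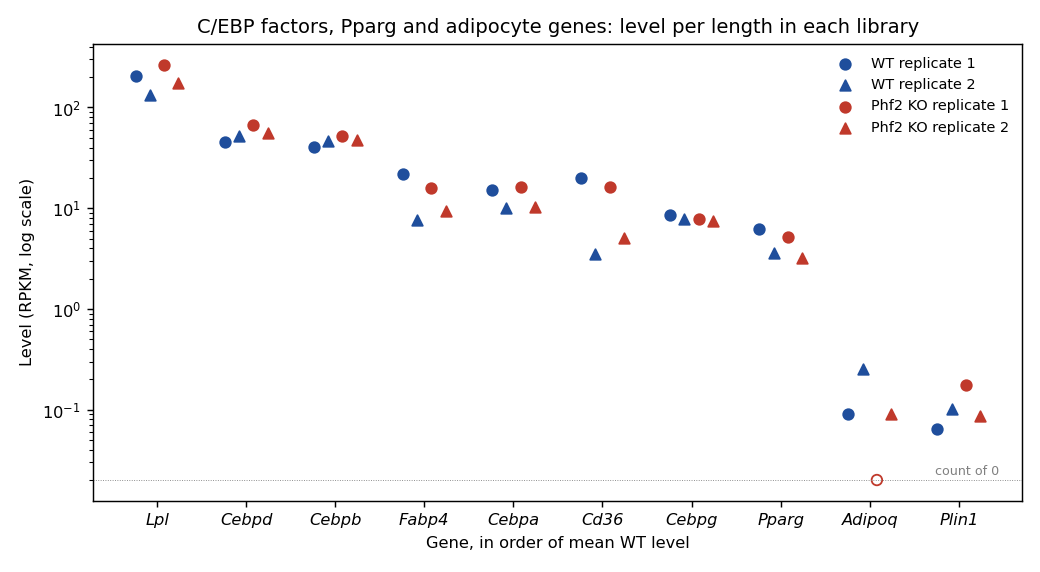
Level per length (RPKM, log axis) of the 10 genes in each library, with WT in blue, *Phf2* KO in red, circles for replicate 1 and triangles for replicate 2. The open circle at the dotted line is a count of 0 for *Adipoq* in *Phf2* KO replicate 1, and *Lpl*, *Cebpa*, *Fabp4*, *Cd36* and *Pparg* are higher in both circles than in both triangles.

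None of the 8 genes tested was called between *Phf2* KO and WT by edgeR's quasi-likelihood test, and each had an adjusted p = 0.999 after Benjamini-Hochberg adjustment over 13668 genes. That test did not call the deleted gene *Phf2* either, with a log2 fold change of -0.79 and an adjusted p = 0.999. DESeq2 did call *Phf2* (adjusted p = 0.00320), so the lack of a call in the main test does not show a lack of change. At an unadjusted p under 0.05, 0 of the 8 were called, against 4.21% of all genes tested, and DESeq2 and limma-voom called 0 of them as well. DESeq2 called 0.400% of all genes to which it gave an adjusted p, and limma-voom called 0 of 13668, so its 0 of 8 says nothing of these genes in particular. Of all genes tested, the main test called 0.00732%, which is 1 gene, so 0 of 8 is near this background. When the fit held a block for replicate number, a pairing that the labels do not state, 2 of the 8, *Cebpd* and *Lpl*, were called, both higher, where 5.77% of all genes tested were called higher and 5.20% lower. It called *Phf2* lower too, with a log2 fold change of -0.80 (adjusted p = 7.67e-19 from edgeR with the block). In the main test, differences by replicate number count as spread, with a common dispersion of 0.0451 against 0.00363 with the block. That fit also called 10 of the 23 macrophage markers higher and 0 lower, and within replicate numbers 13 of them were higher in *Phf2* KO in both pairs and 0 lower in both. Without the block, 0 of the 23 were called and their median log2 fold change was 0.10. The part of macrophages in the 2 calls was not tested. The fitted log2 fold changes ran from -0.23 for *Pparg* to 0.39 for *Lpl*, 4 up and 4 down, with a median of -0.01 beside 0.01 over all genes tested. Within replicate numbers, 4 of the 8 were higher in *Phf2* KO in both pairs and 2 were lower in both, against 32.5% and 30.2% of all genes tested. In bulk samples, fewer cells of a type and less RNA per cell cannot be told apart.

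**Figure D2:**
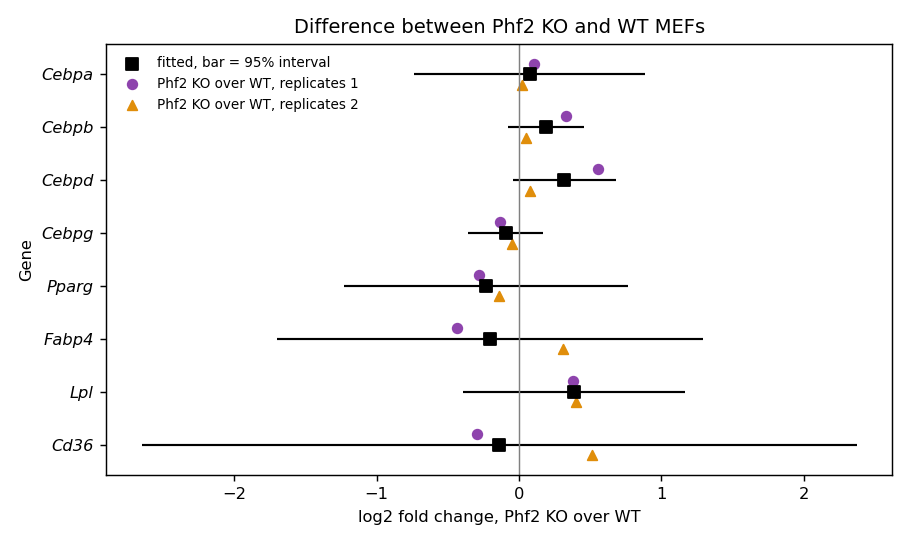
log2 fold change of *Phf2* KO over WT (x axis) for the 8 genes tested, as fitted (black squares, bars are 95% intervals) and as the ratio within replicates 1 (purple circles) and within replicates 2 (orange triangles). Each bar spans 0, the narrowest bars belong to *Cebpb*, *Cebpd* and *Cebpg*, and *Fabp4* and *Cd36* have circles and triangles on opposite sides of 0.

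Among the factors that act early, *Cebpb* and *Cebpd* had higher values in both *Phf2* KO libraries than in both WT libraries, and neither passed the test. *Cebpb* (chromosome 2 of mm9, 167514415 to 167515918, forward strand), a single-exon gene that lies opposite the annotated gene *Tmem189*, had 1484 and 1800 counts in WT against 1607 and 1727 counts in *Phf2* KO. Normalized, these counts were 61.5 and 69.3 CPM in WT against 77.5 and 71.8 CPM in *Phf2* KO, so that the groups did not overlap. The log2 fold change was 0.19 (standard error 0.10, 95% interval -0.08 to 0.46), and 0.12 without WT replicate 1. Since the methods name strand for the alignment and not for the counting, reads of *Tmem189* in *Cebpb* cannot be told apart from its own.

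*Cebpd* (chromosome 16, 15887379 to 15888559, forward strand), the partner of *Cebpb* in the first wave, had 1281 and 1613 counts in WT against 1623 and 1575 counts in *Phf2* KO. Its level was 53.1 and 62.1 CPM in WT against 78.3 and 65.5 CPM in *Phf2* KO, again without overlap. This gave a log2 fold change of 0.32 (standard error 0.14, 95% interval -0.04 to 0.68), and its unadjusted p of 0.0715 from edgeR's quasi-likelihood test was the smallest of the 8. Leaving out *Phf2* KO replicate 1 gave 0.18, and leaving out *Phf2* KO replicate 2 gave 0.44. The ratio of *Phf2* KO to WT was 0.56 log2 units within replicates 1 and 0.08 within replicates 2, and for *Cebpb* 0.33 and 0.05. For both genes most of the difference thus lay between WT replicate 1 and *Phf2* KO replicate 1. Groups without overlap and *Phf2* KO higher were found for 2 of the 8 genes and for 15.5% of all genes tested, and without overlap and lower for 0 of 8 and 18.0%.

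*Cebpg* (chromosome 7, 35831441 to 35841522, reverse strand) encodes a short family member that lacks a strong activation domain of its own and pairs with other leucine zipper proteins. It was the steadiest of the genes, with 42.2 and 38.4 CPM in WT against 38.5 and 37.2 CPM in *Phf2* KO. Its log2 fold change was -0.09 (standard error 0.10, 95% interval -0.36 to 0.17), with -0.13 and -0.05 within replicates 1 and 2, and the *Phf2* KO libraries overlapped those of WT. It was -0.01 without WT replicate 1 and -0.16 without WT replicate 2.

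The later factors, *Cebpa* and *Pparg*, differed more between replicates than between groups. *Cebpa* (chromosome 7, 35904312 to 35906945, forward strand), whose product keeps fat cells in their differentiated state, had 959 and 689 counts in WT against 889 and 649 counts in *Phf2* KO. Its level was 39.8 and 26.5 CPM in WT against 42.9 and 27.0 CPM in *Phf2* KO. The replicates 1 of both groups thus lay above the replicates 2 of both groups. Fitted over both replicates, the log2 fold change was 0.07 (standard error 0.31, 95% interval -0.73 to 0.88), with 0.11 and 0.02 within replicates 1 and 2. It was -0.19 without WT replicate 2 and -0.30 without *Phf2* KO replicate 1.

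*Pparg* (chromosome 6, 115311239 to 115440419, forward strand) encodes PPARγ, the nuclear receptor without which fat cells do not form. It had 300 and 183 counts in WT against 212 and 154 counts in *Phf2* KO, or 12.4 and 7.05 CPM in WT against 10.2 and 6.40 CPM in *Phf2* KO. The highest and the lowest WT library enclosed *Phf2* KO replicate 1, and *Phf2* KO replicate 2 was the lowest of the 4. Its log2 fold change was -0.23 (standard error 0.38, 95% interval -1.23 to 0.77), with -0.28 and -0.14 within replicates 1 and 2. Leaving out WT replicate 1 turned it to 0.25, and leaving out *Phf2* KO replicate 2 to 0.06.

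*Lpl*, *Cd36* and *Fabp4*, which serve fatty acid uptake, also differed between replicates. *Lpl* (chromosome 8, 71404390 to 71431347, forward strand), the lipase that frees fatty acids from circulating lipoproteins, had 33474 and 23646 counts in WT against 37479 and 28866 counts in *Phf2* KO. Its level was 1388 and 910.9 CPM in WT against 1808 and 1200 CPM in *Phf2* KO. *Phf2* KO replicate 1 was the highest library, and *Phf2* KO replicate 2 lay between the WT libraries. Its log2 fold change was 0.39 (standard error 0.30, 95% interval -0.39 to 1.17), with 0.38 within replicates 1 and 0.40 within replicates 2. It was 0.06 without *Phf2* KO replicate 1 and 0.74 without WT replicate 1. *Gpihbp1*, which holds the lipase on capillary walls and was named here after its values were seen, had 0 counts in all 4 libraries.

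*Cd36* (chromosome 5, 17287508 to 17394777, reverse strand), a scavenger receptor that takes up long-chain fatty acids, had 1879 and 361 counts in WT against 1320 and 479 counts in *Phf2* KO. These counts were 77.9 and 13.9 CPM in WT against 63.7 and 19.9 CPM in *Phf2* KO, so the widest gap lay inside WT and both *Phf2* KO libraries fell within it. Fitted together, they gave a log2 fold change of -0.14 (standard error 0.95, 95% interval -2.65 to 2.37). The ratio of *Phf2* KO to WT was -0.29 log2 units within replicates 1 and 0.52 within replicates 2. Without WT replicate 1 the fitted value was 1.60, without *Phf2* KO replicate 2 it was 0.46, and without *Phf2* KO replicate 1 it was -1.20.

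*Fabp4* (chromosome 3, 10204347 to 10208576, reverse strand), which carries fatty acids in the cytoplasm of adipocytes and macrophages, had 333 and 126 counts in WT against 211 and 145 counts in *Phf2* KO. Its level was 13.8 and 4.85 CPM in WT against 10.2 and 6.03 CPM in *Phf2* KO, with the *Phf2* KO libraries again inside the range of WT. The log2 fold change was -0.20 (standard error 0.57, 95% interval -1.70 to 1.29), with -0.44 and 0.31 within replicates 1 and 2. It was 0.75 without WT replicate 1 and 0.12 without *Phf2* KO replicate 2.

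*Plin1* and *Adipoq*, which mark mature fat cells, were too low to be tested. *Plin1* (chromosome 7, 86866050 to 86877662, reverse strand), which coats lipid droplets, had 3 and 5 counts in WT against 7 and 4 counts in *Phf2* KO. The ratio of summed counts over library totals, *Phf2* KO over WT, was 1.53 (exact 95% interval for counting error alone 0.560 to 4.38). *Adipoq* (chromosome 16, 23146609 to 23158101, forward strand), the gene of the hormone adiponectin, had 3 and 9 counts in WT against 0 and 3 counts in *Phf2* KO, with a ratio of 0.278 (exact 95% interval 0.0503 to 1.03). Differences in these genes were not detectable at this depth. Of the other mature adipocyte markers, *Cidec*, *Lep*, *Retn* and *Cfd* had 6 counts or fewer in each library, and the 8 markers together took between 2.16 and 6.15 CPM. *Slc2a4*, the insulin-responsive glucose transporter, and *Pck1* were the most abundant, and *Slc2a4* had 13 and 44 counts in WT against 40 and 74 counts in *Phf2* KO.

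Across the genes, the difference between replicate 1 and replicate 2 had the same sign in both groups for *Cd36*, *Fabp4*, *Pparg*, *Lpl*, *Cebpa* and *Cebpg*. For *Cd36* it was 2.48 log2 units in WT and 1.67 in *Phf2* KO, and *Cd36* was the only one of the 8 past 1 log2 unit in both groups, against 3.75% of all genes tested. For *Fabp4* the difference was 1.49 in WT and 0.75 in *Phf2* KO, and for *Pparg* 0.81 and 0.67. *Lpl* gave 0.61 and 0.59, and *Cebpa* 0.58 and 0.67. *Cebpg* gave only 0.14 and 0.05, while *Cebpb* and *Cebpd* were below 0 in WT, at -0.17 and -0.23, and above 0 in *Phf2* KO, at 0.11 and 0.26. The sign was shared with replicate 1 higher in 6 of 8 genes and in 32.7% of all genes tested.

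The summed macrophage markers differed between replicates by 2.22 log2 units in WT and 1.74 in *Phf2* KO, close to the values for *Cd36*. Expressed per 1000 CPM of these markers, *Cd36* stood at 15.4 and 12.8 in the WT libraries against 11.4 and 12.0 in those of *Phf2* KO. The highest of the 4 libraries was 1.35 times the lowest on this scale, against 5.60 times in CPM. For *Cebpa*, *Cebpb*, *Cebpd*, *Cebpg*, *Pparg* and *Lpl* the same step widened the range, to between 3.06 and 5.45 times from at most 1.99 times, and for *Fabp4* it was 2.45 times from 2.85 times. The part of macrophages in these differences was not tested. Endothelial cells also express *Cd36* and *Fabp4*, and of 14 endothelial markers *Tie1*, *Cldn5* and *Robo4* had 0 counts in all libraries. The 3 most abundant were *Flt1*, *Vwf* and *Kdr*. *Vwf* had 647 and 152 counts in WT against 556 and 202 counts in *Phf2* KO, a difference between replicates of 2.18 and 1.67 log2 units. *Kdr* had 441 and 232 counts in WT against 258 and 135 counts in *Phf2* KO, a difference between replicates of 1.03 and 1.14. *Flt1* differed by only 0.33 and 0.57. Of the 6 endothelial markers tested, 2 were higher in replicate 1 by over 1 log2 unit in both groups. *Erg* was lower by over 1 log2 unit, at -1.31 and -1.26. *Pecam1*, *Cdh5*, *Emcn*, *Esam* and *Sox17* had 6 counts or fewer in each library. The part of endothelial cells was not tested either. The sums over this list were 266.0 and 191.9 CPM in WT against 314.8 and 202.9 CPM in *Phf2* KO, mostly from *Flt1*. Skeletal muscle markers summed to between 21.7 and 57.8 CPM, mostly from *Des*, with *Myh8* and *Tnni2* next. The fibroblast markers *Col1a1*, *Col1a2* and *Fn1* led a list of 14 that summed to between 73070 and 86900 CPM and are those of the labelled cell type, and the list's median difference between replicates was -0.10 in WT and 0.03 in *Phf2* KO. Between the groups, 5 of the 14 were above 0 and 9 below, with a median log2 fold change of -0.06, and none passed the test. In 6 of them the *Phf2* KO libraries were lower than WT without overlap, against 18.0% of all genes tested.

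**Figure D3:**
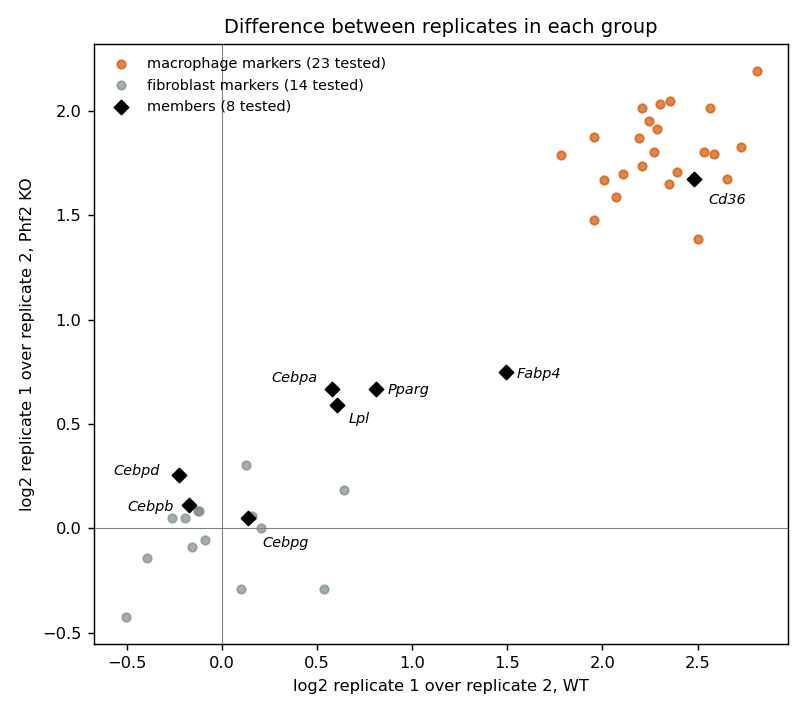
Difference between replicate 1 and replicate 2 (log2) in WT on the x axis and in *Phf2* KO on the y axis, for the 8 genes tested (black diamonds), 23 macrophage markers (orange) and 14 fibroblast markers (grey). *Cd36* lies among the macrophage markers at 2.48 and 1.67, *Cebpb*, *Cebpd* and *Cebpg* lie near the fibroblast markers, and *Fabp4*, *Pparg*, *Lpl* and *Cebpa* lie between.

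The rest of the pathway was described from lists of 116 genes, of which 106 were tested. edgeR's quasi-likelihood test, DESeq2 and limma-voom each called 0 of them. With the replicate block, 13 were called higher and 11 lower, where the fit called 11.0% of all genes tested. At an unadjusted p under 0.05, 3 were higher and 4 lower in *Phf2* KO, 6.6% of the genes, against 1.54% higher and 2.67% lower among all genes tested. Their median log2 fold change was -0.02, and 48 were above 0.

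Of 8 tested C/EBP relatives and regulators, 3 were above 0 and 5 below, with a median log2 fold change of -0.02 and a range of -0.21 to 0.29. Within replicate numbers, 2 were higher in *Phf2* KO in both pairs and 2 lower in both. The Tribbles genes, of which *Trib1* and *Trib2* are known for the breakdown of C/EBPα, had the smallest p-values. *Trib1* had 242 and 214 counts in WT against 240 and 258 counts in *Phf2* KO (log2 fold change 0.29, standard error 0.17), *Trib2* had 0.18 (standard error 0.12) and *Trib3* -0.21 (standard error 0.12). The most abundant were *Atf5* and *Atf4*, leucine zipper genes of the stress response, with log2 fold changes of -0.03 and -0.05. *Cebpe*, the myeloid C/EBP, had 1 count in all.

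Of 19 tested genes for PPAR relatives, their RXR partners and coregulators, 8 were above 0 and 11 below, with a median of -0.03. In both replicate pairs, 5 were higher and 7 lower. *Nrip1*, a corepressor of nuclear receptors, had 701 and 742 counts in WT against 521 and 545 counts in *Phf2* KO, without overlap (log2 fold change -0.27, standard error 0.11). *Ncoa6*, a coactivator, had -0.20 (standard error 0.15). *Ncor1*, among the most abundant, had -0.03.

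Of 20 activators of adipogenesis, 11 were above 0 and 9 below (median 0.05), with 9 higher and 4 lower in both replicate pairs. *Klf15*, a factor of late adipogenesis, had 300 and 334 counts in WT against 353 and 388 counts in *Phf2* KO, a log2 fold change of 0.39 (standard error 0.12, unadjusted p = 0.0262 from edgeR's quasi-likelihood test). *Klf4*, which acts upstream of *Cebpb*, had -0.20 (standard error 0.08) and *Irs1*, the insulin receptor substrate, -0.29 (standard error 0.15). *Bmp4*, which commits mesenchymal cells to the fat lineage, had 3565 and 7060 counts in WT against 4730 and 9309 counts in *Phf2* KO. Its log2 fold change of 0.55 (standard error 0.39) was 0.63 within replicates 1 and 0.51 within replicates 2, and its replicates 2 were the higher ones. *Srebf1*, the factor of fatty acid synthesis, had -0.01.

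Of 16 inhibitors, 7 were above 0 and 9 below (median -0.04), with 6 higher and 6 lower in both replicate pairs. *Smad3*, which relays TGF-β signals, had 1978 and 2283 counts in WT against 2058 and 2405 counts in *Phf2* KO (log2 fold change 0.23, standard error 0.08, unadjusted p = 0.0371 from edgeR's quasi-likelihood test). *Sox9*, which holds progenitors back, had 185 and 226 counts in WT against 125 and 144 counts in *Phf2* KO (log2 fold change -0.45, standard error 0.16, unadjusted p = 0.0451 from edgeR's quasi-likelihood test). *Hes1* had 0.33 (standard error 0.22). *Dlk1*, the classic preadipocyte gene Pref-1, and *Ctnnb1* were the most abundant, with -0.08 and -0.05.

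Of 31 tested adipocyte genes beyond those above, 14 were above 0 and 17 below, with a median of -0.02, and none passed the test. In both replicate pairs, 13 were higher and 13 lower. *Car3*, a carbonic anhydrase abundant in fat, had 71 and 87 counts in WT against 14 and 33 counts in *Phf2* KO, a log2 fold change of -1.60 (standard error 0.40, unadjusted p = 0.0121 from edgeR's quasi-likelihood test). *Pcx*, pyruvate carboxylase, had 677 and 868 counts in WT against 817 and 942 counts in *Phf2* KO (log2 fold change 0.35, standard error 0.12). *Rbp4*, a retinol carrier, was at 13 and 11 counts in WT against 4 and 2 in *Phf2* KO. The lipogenic enzymes *Fasn* and *Acly* were the most abundant, with log2 fold changes of -0.01 and -0.02. *Plin2*, *Fabp5* and *Nr1h3*, named after their values were seen, were the 3 genes of this list higher in replicate 1 by over 1 log2 unit in WT and *Phf2* KO alike, and *Plin4* was the 1 gene lower by as much, at -1.58 and -1.39.

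Of 12 adipocyte progenitor markers, 5 were above 0 and 7 below (median -0.02), with 3 higher and 5 lower in both replicate pairs. *Ly6a*, the Sca-1 antigen, had 3590 and 2727 counts in WT against 1762 and 1836 counts in *Phf2* KO, or 127.0 ± 31.0 (SD, n = 2) and 80.7 ± 6.13 (SD, n = 2) CPM, without overlap (log2 fold change -0.65, standard error 0.19, unadjusted p = 0.0209 from edgeR's quasi-likelihood test). *Cd34* had 1801 and 2023 counts in WT against 945 and 1614 counts in *Phf2* KO (log2 fold change -0.44, standard error 0.20). Of the fibroblast markers, *Lum* and *Postn*, named after their values were seen, also had lower counts in *Phf2* KO. *Lum* had 3254 and 2414 counts in WT against 1261 and 1791 counts in *Phf2* KO, a log2 fold change of -0.75 (standard error 0.22), and *Postn* had -0.76 (standard error 0.25). Other fibroblast markers went the other way, 5 of the 14 being above 0, with *Fap* the highest at 0.48 (standard error 0.26). *Cd24a* was near the floor, with 29 and 32 counts in WT and 10 and 23 in *Phf2* KO. *Thy1* and *Pdgfrb*, the most abundant, had 0.03 and 0.10.

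**Figure D4:**
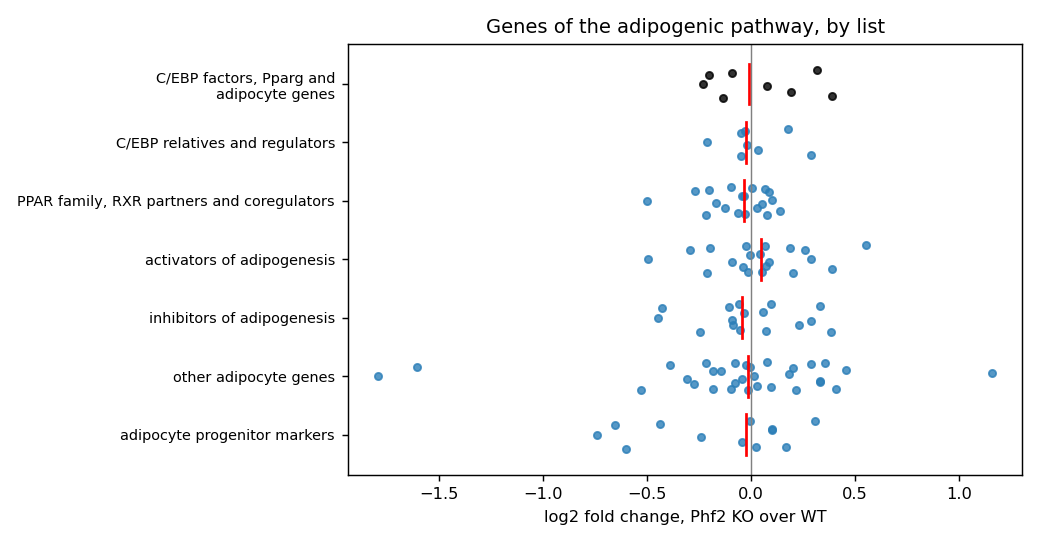
log2 fold change of *Phf2* KO over WT (x axis) for each tested gene, in rows by list, with the median of each list as a red line. The medians lie between -0.04 and 0.05, and the points farthest from 0 are *Rbp4* and *Car3* on the left and *Slc2a4* on the right, 3 genes of low count.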

How the data were processed

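By the methods, single reads of 50 nt were trimmed with Trim Galore, cleared of ribosomal RNA with bowtie2, aligned with STAR (set to reverse stranded, genome mm9) and assigned to genes with featureCounts. The counts deposited by the authors are whole numbers per gene symbol without normalization. Tool versions and annotation release are not given in the sources used here. The authors' second table, with their own DESeq2 comparison, was not used.

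Genotype was fitted to the counts by edgeR 4.0.16 under R 4.3.3 (filterByExpr, TMM, glmQLFit and glmQLFTest, genotype as the only term). Genes were called at a Benjamini-Hochberg adjusted p under 0.1 over 13668 genes. A standard error is the fitted change divided by the square root of F, and intervals are at 95%. Differences within and between replicate numbers are log2 CPM with a prior count of 2. RPKM used exonic lengths of GENCODE M1 (NCBIM37, which is mm9). The other tools tried were limma 3.58.1 (voom) and DESeq2 1.42.0. Figures used Matplotlib 3.10.9 under Python 3.11.15. The tests without a block were tried on simulated counts. These had less dispersion than the real libraries (common dispersion 0.0451) and no difference by replicate number. They therefore do not show how the tests perform on these libraries.

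The members and lists were chosen with earlier results of these data known. Named genes are the members, of each pathway list the 3 with the smallest p and the 2 most abundant, apart from 1 gene that is not reported here, and of each marker list the 3 most abundant and those at 0. *Cebpe*, *Cx3cr1*, *Cd163*, *Cidec*, *Lep*, *Retn*, *Cfd*, *Erg*, *Pecam1*, *Cdh5*, *Emcn*, *Esam*, *Sox17* and *Fap* were named after their counts were seen. No libraries were alike within sampling noise, with a chi-square per degree of freedom of at least 11.8. It was 15.2 between WT and *Phf2* KO replicates 1 and 11.8 between replicates 2. Between the WT libraries it was 41, and between the *Phf2* KO libraries 28. Across both group and replicate number it was 44.3 and 40.8.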

Additional observations from a re-analysis of the deposited data

How the results depend on the processing

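Members and pathway lists had 0 calls with DESeq2, limma-voom, RLE or library size scaling, every gene with 1 count or more, a filter of 1 CPM in 2 libraries, call thresholds of 0.05 or 0.01, and with each library left out. Over all genes these settings called few: 0 with limma-voom and with each library left out, 1 with either scaling or filter, and 64 with DESeq2. A replicate block in the edgeR fit moved the counts. The labels do not say that equal numbers are pairs. The difference between replicates 1 and 2 was correlated between WT and *Phf2* KO across 13668 genes (Pearson's r = 0.774, genes not being independent replicates). With the replicate block, which leaves 1 residual degree of freedom, 1500 genes were called, 11.0% of all. Of the members, 2 were called, *Cebpd* (adjusted p = 0.00552 from edgeR with the block) and *Lpl* (0.00453), both higher. It called 1 C/EBP relative, 1 PPAR partner or coregulator, 5 activators, 4 inhibitors, 9 other adipocyte genes and 4 progenitor markers, 13 higher and 11 lower.

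The log2 fold change of *Cd36* was 0.11 with limma-voom and 0.0388 with the replicate block. Leaving out each library in turn, it ran from -1.20 to 1.60, that of *Fabp4* from -0.77 to 0.75, *Pparg* from -0.60 to 0.25 and *Cebpa* from -0.30 to 0.41. *Cebpb* (0.12 to 0.28), *Cebpd* (0.18 to 0.44), *Cebpg* (-0.16 to -0.01) and *Lpl* (0.06 to 0.74) kept their direction under each alternative run, though their size moved. For *Cd36* between replicates, library size alone or a prior count of 0.5 left 1 member past 1 log2 unit. The common dispersion was 0.0451 without the block and 0.00363 with it. Depth limits *Plin1* and *Adipoq*.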
